A study of Mus musculus with 3 samples.

Results

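The genes described here encode growth factors of the FGF, IGF, EGF, VEGF, PDGF and HGF families, their receptors, and the 7 IGF binding proteins. The rule used gene symbols and no measured value: it took every probe set whose platform annotation gave 1 gene symbol, where that symbol belonged to these families. Fgf11, Fgf12, Fgf13 and Fgf14 share the FGF name but encode proteins that stay inside the cell, and they are counted with the FGF ligands by name only. The choice took in 143 probe sets for 65 genes, out of 45037 probe sets that were not array controls. Areg, the EGF receptor ligand amphiregulin, was not analysed here. Total kidney RNA was hybridised to mouse expression arrays, with 1 array per mouse. Both acetate-fed mice were C57BL/6 animals that drank water with 200 mM acetate (C2, a short-chain fatty acid) for 6 weeks, starting at 3 weeks of age. The control was the kidney of 1 C57BL/6 mouse whose agent label reads control. The treatment text on its record is the one the acetate-fed mice carry, and its age and drinking water are not given separately. All mice were housed conventionally. Sex, litter and the day of sampling are not given for any of them. The mice are named acetate-fed mouse 1, acetate-fed mouse 2 and the control mouse.

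Growth factors of these families bind receptors that are tyrosine kinases, and the bound receptors signal through shared adaptors to the MAP kinase and PI3 kinase pathways. IGF1 and IGF2 circulate bound to IGF binding proteins, which hold them away from their receptor, and proteases that cut the binding proteins release them. In the kidney, EGF is made in the thick ascending limb and distal convoluted tubule, VEGF-A by podocytes and tubule cells for the neighbouring endothelium, and the PDGF receptors mark fibroblasts, pericytes and mesangial cells.

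Values are the deposited log2 expression values, so that a difference of 1 is a 2-fold difference. An array value is specific to its probe set, and levels are not compared between genes. A probe set was tested if its mean over the 3 arrays lay in the upper 60% of the array, which meant a mean of at least 4.21. This kept 100 of the 143 probe sets and 48 of the 65 genes. The test was limma, acetate minus control, with Benjamini-Hochberg adjustment over all 27022 tested probe sets at 0.05, and 1 control array gave the control no error of its own. The spread came from the acetate-fed pair and, with 26.5 prior degrees of freedom against 1 residual, mostly from all probe sets together. A pass therefore reflects the size of the mean difference more than agreement between the mice, and with 3 arrays an exact permutation test of a single probe set cannot give a p below 0.333. All member calls below were lost after quantile normalization or median centring of the deposited values (0 member calls each), so the values on each array carry the description and the adjusted p is given beside them.

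Among the 100 tested probe sets, 6 passed the test as higher in the acetate-fed kidneys and 7 as lower, against 4.01% and 3.08% of all tested probe sets. By size alone, 1 exceeded the control 2-fold or more in both mice and 1 lay below it by as much, against 0.344% and 0.359% of all tested probe sets. At any size, 27 were higher in both mice and 34 lower in both, against 26.9% and 27.5%. A further 19 were identical on the 3 arrays, against 20.5% of all tested probe sets. What made deposited values identical is not given, so such a value is not read as an unchanged gene. The median difference was 0.00 in each mouse, as it was over all tested probe sets. The counts at any size lay near the background of the array, and the description turns on the few members past the test. Lower in the acetate-fed kidneys were Igfbp6, Fgf9, Fgf1, Fgfrl1 and Erbb3. Higher were Igfbp2 and the PDGF receptor Pdgfra. Single probe sets of other genes also passed as higher: 1 of 2 of Pdgfrb, 1 of 3 of Vegfd and 1 of 5 tested of Igf1r. With each gene represented by its tested probe set of the highest mean, 2 of the 48 genes passed as higher and 5 as lower, against 4.13% and 3.98% of all 13473 genes.

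**Figure D1:**
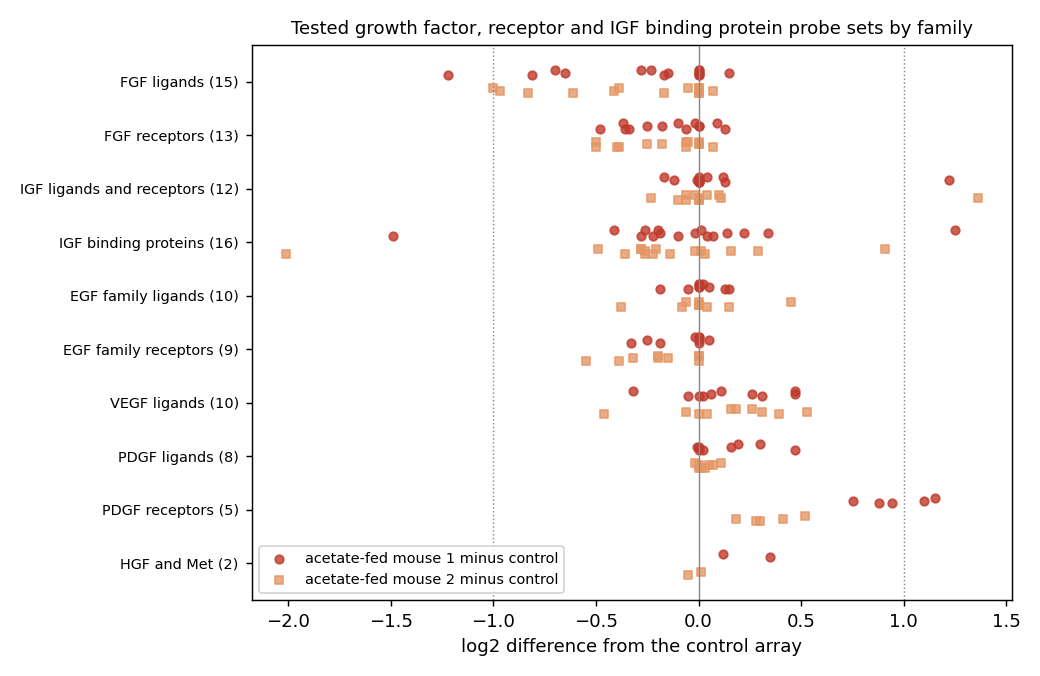
Log2 difference of each tested member probe set from the control array, by family, with the number of tested probe sets in brackets; red circles are acetate-fed mouse 1, orange squares acetate-fed mouse 2, and dotted lines mark 2-fold differences. The FGF receptors and ligands lie mostly at or below 0, and the tested Pdgfra and Pdgfrb probe sets lie above 0 in both mice. The PDGF receptor row also holds Pdgfrl, which reached the tested range only through the acetate-fed arrays. Both mice pass a dotted line together at Igfbp6 (below) and 1 Igf1r probe set (above).

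The IGF binding proteins held the strongest decrease and 1 of the strongest increases. Igfbp6 encodes the binding protein that prefers IGF2 over IGF1. It had a value of 6.08 in acetate-fed mouse 1 and 5.56 in acetate-fed mouse 2, against 7.57 in the control mouse. Both acetate-fed kidneys lay below the control, 2.81-fold and 4.02-fold, and the mean difference was -1.75 ± 0.18 (SE; limma adjusted p = 5e-08). Igfbp6 was the 1 member at least 2-fold lower in both mice. Igfbp2, another IGF2-preferring binding protein, went the other way, with 7.75 and 7.41 in the acetate-fed mice against 6.50 in the control mouse. It was 2.38-fold and 1.88-fold higher, and the mean difference was 1.08 ± 0.16 (SE; limma adjusted p = 1.8e-05). Each of these genes is read by a single probe set, so no second probe set checks either value.

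The RefSeq windows of 250 bases upstream of the annotated starts of Igfbp6, Fgf9 and Igfbp2 are printed because the main probe sets of these 3 genes had the largest mean differences, each over 1 in size, among the main probe sets of the 48 tested genes. Capitals mark matches on either strand to the TATA box letters TATAAA. They also mark matches to the GC box letters GGGCGG. The third motif marked is the CCAAT box, spelled by its name, and no 2 matches overlap. All are on the plus strand of GRCm38.p6, at chr15:102143936-102144185 for Igfbp6, chr14:58072436-58072685 for Fgf9 and chr1:72824230-72824479 for the first of 2 annotated starts of Igfbp2.
Igfbp6: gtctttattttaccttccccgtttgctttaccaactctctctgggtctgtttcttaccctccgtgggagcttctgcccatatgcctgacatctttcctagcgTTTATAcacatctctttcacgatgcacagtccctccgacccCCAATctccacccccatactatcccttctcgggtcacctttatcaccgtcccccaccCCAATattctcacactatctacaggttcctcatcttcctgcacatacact
Fgf9: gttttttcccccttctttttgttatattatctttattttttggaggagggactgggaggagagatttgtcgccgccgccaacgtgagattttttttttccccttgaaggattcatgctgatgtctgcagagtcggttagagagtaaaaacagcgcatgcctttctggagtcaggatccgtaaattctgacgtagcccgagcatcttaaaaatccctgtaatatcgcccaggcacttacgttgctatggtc
Igfbp2: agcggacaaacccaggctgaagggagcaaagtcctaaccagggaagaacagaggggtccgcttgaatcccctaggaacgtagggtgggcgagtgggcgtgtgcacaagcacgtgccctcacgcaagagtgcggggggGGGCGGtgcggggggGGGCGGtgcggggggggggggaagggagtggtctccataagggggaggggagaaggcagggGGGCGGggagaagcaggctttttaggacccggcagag

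The Igfbp6 window held 1 TATAAA match and 2 CCAAT matches and had 49.6% G and C. The Igfbp2 window held 3 GGGCGG matches and had 67.2% G and C, while the window of its second start held 0 and had 56.4%. The Fgf9 window held none of the motifs and had 44.8% G and C. Among all 32851 windows of this length, 12.4% held TATAAA, 32.7% held GGGCGG and 33.8% held CCAAT, and the median G and C content was 52.4%. Of the 65 member genes, 50 had a window in the table.

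The remaining binding proteins differed less. Igfbp4, which the protease PAPPA cuts to release IGF, was read by 6 probe sets, which are not independent measurements. All 6 were lower in both mice, with mean differences between -0.35 and -0.21, and none passed the test (limma adjusted p between 0.11 and 0.46). Its main probe set had 12.58 and 12.51 in the acetate-fed mice, against 12.77 in the control mouse. Igfbp5 was 11.23 and 11.31, against 11.02 in the control mouse (limma adjusted p = 0.29), while its second tested probe set differed by -0.02. Igfbp3, the main carrier of IGFs in serum, was 9.66 in acetate-fed mouse 1 and 9.24 in acetate-fed mouse 2, against 9.59 in the control mouse, so that the control lay between the acetate-fed kidneys. Igfbp1 was 8.45 and 8.12, against 8.11 in the control mouse, which left acetate-fed mouse 2 level with the control. Igfbp7 lay between 14.01 and 14.05 on all 3 arrays.

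The IGF ligands and their receptors were nearly level. Igf1 had 7.67 and 7.49 in the acetate-fed mice, against 7.54 in the control mouse, and its 4 tested probe sets had mean differences between -0.05 and 0.05. Igf2 had 9.03 and 8.97, against 9.03 in the control mouse. Igf2r, the receptor that takes IGF2 up for degradation, had 8.67 and 8.94, against 8.84 in the control mouse, again with the control between the acetate-fed kidneys. For Igf1r, the signalling receptor of both ligands, the main probe set gave 9.55 in each acetate-fed mouse, against 9.51 in the control mouse. Of its other tested probe sets, 2 were identical on the 3 arrays, 1 differed by -0.12, and 1446303_at stood apart. That probe set had 6.07 and 6.21 in the acetate-fed mice, against 4.85 in the control mouse, a mean difference of 1.29 ± 0.16 (SE; limma adjusted p = 2e-06). It was the 1 member probe set at least 2-fold higher in both mice, and the other 4 tested Igf1r probe sets did not pass the test. The stretch of the transcript it reads was not looked up here.

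Genes that act on IGFs but lie outside the family names included 5 that passed the test. Of 20 listed genes, 17 were tested: 2 passed as higher and 3 as lower, against 4.13% and 3.98% of all genes. Past 2-fold in both mice, 1 lay above the control and 2 below it, against 0.408% and 0.460% of all genes. This list and the other pathway lists were drawn up with earlier results of these data known, so their counts describe the listed genes and do not set them apart from the array. At any size 2 were higher in both mice and 7 lower, against 26.0% and 30.9% of all genes. Socs2, an inhibitor of growth hormone signalling that the hormone itself induces, had 8.08 and 8.21 in the acetate-fed mice, against 9.77 in the control mouse. It was 3.23-fold and 2.96-fold lower (limma adjusted p = 9.6e-10). All 5 tested Socs2 probe sets were lower in both mice. Igfals, the acid-labile subunit that stabilises IGF in serum, had 7.83 and 7.64, against 8.96 in the control mouse, 2.19-fold and 2.50-fold lower (limma adjusted p = 4.2e-07). Irs2, an adaptor of the insulin and IGF1 receptors, had 7.22 and 7.58, against 8.25 in the control mouse (limma adjusted p = 0.00036).

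The 2 that passed as higher, Stc1 and Pappa, both bear on the protease step. Only 1 of the 2 Stc1 probe sets was tested. The other, below the tested range, had 3.31 and 3.15 in the acetate-fed mice, against 3.31 in the control mouse. Stc1, a secreted glycoprotein that inhibits PAPPA, had 8.05 and 7.66 in the acetate-fed mice, against 5.92 in the control mouse, 4.36-fold and 3.33-fold higher (limma adjusted p = 9.6e-10). Pappa itself had 6.38 and 6.99, against 5.89 in the control mouse, 1.41-fold and 2.15-fold higher (limma adjusted p = 0.0049), and its second tested probe set was also higher in both mice. The growth hormone receptor Ghr had 11.76 and 11.49, against 11.83 in the control mouse (limma adjusted p = 0.56), and the insulin receptor Insr 8.45 and 8.46, against 8.63 (limma adjusted p = 0.74).

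**Figure D2:**
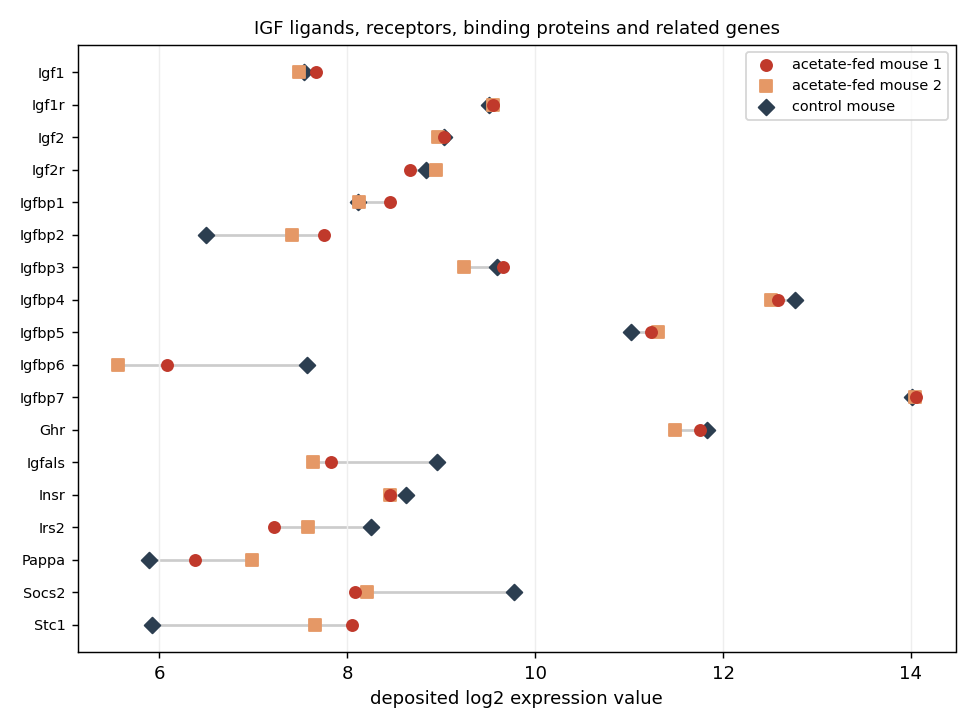
Deposited log2 value on each array for the main probe set of each IGF ligand, receptor and binding protein, followed by 7 related genes; red circles and orange squares are the acetate-fed mice and dark diamonds the control mouse. The 3 symbols nearly coincide at Igf1, Igf1r, Igf2 and Igfbp7, while the control lies to the right of both acetate-fed mice at Igfbp6, Igfals, Irs2 and Socs2 and to the left at Igfbp2, Pappa and Stc1.

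Among the FGF ligands, Fgf9 and Fgf1 were lower in both acetate-fed kidneys. Fgf9, a secreted FGF that maintains nephron progenitors during development, had 7.20 and 7.58 in the acetate-fed mice, against 8.42 in the control mouse. It was 2.32-fold and 1.78-fold lower, a mean difference of -1.03 ± 0.15 (SE; limma adjusted p = 3.3e-05). Its other probe set had 6.92 and 7.13, against 7.73 in the control mouse (limma adjusted p = 0.002). Fgf1, acidic FGF, which binds all FGF receptors and leaves cells without a signal peptide, had 9.20 and 8.90, against 9.90 in the control mouse. It was 1.62-fold and 2.01-fold lower, a mean difference of -0.85 ± 0.14 (SE; limma adjusted p = 8.6e-05). A second Fgf1 probe set had 8.32 and 7.99, against 8.96 in the control mouse (limma adjusted p = 0.00033), and the third and dimmest had 6.40 and 6.28, against 6.68 (limma adjusted p = 0.27). In all 5 probe sets of Fgf9 and Fgf1, both acetate-fed kidneys lay below the control.

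The other FGF ligands gave little signal. Of 22 FGF ligand genes, 12 had no tested probe set: Fgf2, Fgf5, Fgf6, Fgf8, Fgf10, Fgf13, Fgf14, Fgf15, Fgf16, Fgf17, Fgf21 and Fgf23. Of the 10 that were tested, 5 were lower in both mice, 0 higher in both and 5 equal on all 3 arrays, against 30.9%, 26.0% and 17.9% of all genes. Besides Fgf1 and Fgf9, those lower in both were Fgf18 with 4.49 and 4.24, against 4.65 in the control mouse, Fgf22 with 5.29 and 5.47, against 5.52, and Fgf4 with 5.49 in each acetate-fed mouse, against 5.66, none past the test. Fgf3, Fgf7, Fgf11, Fgf12 and Fgf20 had the same value on all 3 arrays at their main probe set. Fgf23, the bone hormone of phosphate balance, had 3.20 and 3.34, against 3.38 in the control mouse, below the tested range.

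At the main probe set, 4 of the 5 FGF receptor genes were lower in both mice and 1 higher. Over all genes, 30.9% were lower in both mice and 26.0% higher. Fgfrl1, a receptor that binds FGFs but lacks a kinase domain, had 8.44 and 8.30 in the acetate-fed mice, against 8.81 in the control mouse, with a mean difference of -0.44 ± 0.13 (SE; limma adjusted p = 0.046). Its second probe set had 7.21 and 7.29, against 7.69 (limma adjusted p = 0.066), so both probe sets were lower in both mice. Fgfr4, the receptor that with the co-receptor beta-klotho answers FGF15 in the liver, had 7.07 and 6.93, against 7.44 in the control mouse (limma adjusted p = 0.08). Its 4 tested probe sets disagreed, with mean differences between -0.43 and 0.04. Fgfr1, the main partner of klotho, had 7.03 in each acetate-fed mouse, against 7.09 in the control mouse. Fgfr2, the epithelial receptor of FGF7 and FGF10, had 7.73 and 7.67, against 7.59, and Fgfr3 had 6.83 and 6.88, against 6.93. None of these 3 receptors passed the test.

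The listed FGF co-receptors, feedback inhibitors and targets gave 0 calls by limma among 13 tested genes, against 4.13% of all genes called higher and 3.98% lower. At any size 2 were higher in both mice and 6 lower, against 26.0% and 30.9% of all genes. The feedback inhibitor Spry2 came nearest, with 6.86 and 6.69 in the acetate-fed mice, against 7.20 in the control mouse (limma adjusted p = 0.1). Spry1 had 8.23 and 8.01, against 8.23 in the control mouse. The MAP kinase phosphatase Dusp6 had 9.26 and 9.36, against 9.37, and the FGF target Etv5 had 5.73 and 5.55, against 5.95 (limma adjusted p = 0.4). Klotho (Kl), the FGF23 co-receptor, had 11.61 and 11.88 in the acetate-fed mice, against 11.51 in the control mouse (limma adjusted p = 0.42). Beta-klotho (Klb) had no tested probe set.

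Within the FGF23 and phosphate list, 1 of 9 tested genes passed as higher and 1 as lower, against 4.13% and 3.98% of all genes. Cyp24a1, which degrades active vitamin D, had 8.32 and 8.80 in the acetate-fed mice, against 7.87 in the control mouse, 1.36-fold and 1.91-fold higher (limma adjusted p = 0.0043). Pth1r, the parathyroid hormone receptor, had 11.48 and 11.34, against 12.26 in the control mouse, 1.71-fold and 1.89-fold lower (limma adjusted p = 1.3e-05). Cyp27b1, which makes active vitamin D, had 6.33 and 6.84, against 6.87 in the control mouse (limma adjusted p = 0.54), a difference mostly of acetate-fed mouse 1.

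At their tested probe sets, both PDGF receptor genes, Pdgfra and Pdgfrb, had values above the control in each acetate-fed kidney. Each value was higher in mouse 1 than in mouse 2. A further Pdgfra probe set, below the tested range, was 3.32 on all 3 arrays. Pdgfra, the receptor of interstitial fibroblasts, had 8.10 and 7.47 in the acetate-fed mice, against 6.95 in the control mouse, 2.22-fold and 1.43-fold higher. The mean difference was 0.84 ± 0.18 (SE; limma adjusted p = 0.0021), and a second tested probe set had 5.68 and 5.34, against 4.93 (limma adjusted p = 0.035). Pdgfrb, the receptor of pericytes and mesangial cells, had 8.12 and 7.20, against 7.02 in the control mouse, 2.15-fold and 1.13-fold higher. That probe set missed the threshold (limma adjusted p = 0.063), while the other, with 7.61 and 6.95 against 6.67 in the control mouse, passed it (limma adjusted p = 0.038). Pdgfrl, a PDGF receptor-like protein without a kinase, had 4.88 and 4.30, against 4.0 in the control mouse (limma adjusted p = 0.064). It reached the tested range only through the acetate-fed arrays and is not counted with the other two. In acetate-fed mouse 2 the Pdgfrb difference was small.

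None of the PDGF ligand probe sets passed the test. Pdgfb, the ligand that recruits pericytes, had 8.19 in acetate-fed mouse 1 and 7.75 in acetate-fed mouse 2, against 7.72 in the control mouse (limma adjusted p = 0.58), so that mouse 2 was level with the control. Pdgfa was 7.96 and 7.95, against 7.94 in the control mouse. Pdgfc was 7.61 and 7.66, against 7.61, and Pdgfd was 6.40 and 6.25, against 6.25.

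Among the VEGF ligands, Vegfd, a ligand of the lymphatic receptor Flt4, was higher in both mice at all 3 of its probe sets. Its main probe set had 7.89 and 7.93 in the acetate-fed mice, against 7.62 in the control mouse (limma adjusted p = 0.33). The probe set 1438954_x_at had 6.23 and 6.29, against 5.75 (limma adjusted p = 0.047), and the third had 5.75 and 5.84, against 5.45 (limma adjusted p = 0.28). Vegfa had 8.37 and 8.52, against 8.26 in the control mouse (limma adjusted p = 0.72). Vegfb had 9.15 and 9.63, against 9.47, with the control between the acetate-fed kidneys, and the placental growth factor gene Pgf was 5.03 on all 3 arrays. The 3 Vegfc probe sets disagreed in direction, with mean differences between -0.26 and 0.32, and none passed.

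Of the 11 listed VEGF receptor and other vascular genes, 2 passed as higher and 0 as lower, against 4.13% and 3.98% of all genes. At any size 8 were higher in both mice and 0 lower, against 26.0% and 30.9%. The 2 that passed were among the 5 receptors and co-receptors, of which 4 were higher in both mice. Flt4 had 6.39 and 6.20 in the acetate-fed mice, against 5.78 in the control mouse (limma adjusted p = 0.045). Its second tested probe set did not differ in the same way, with 5.12 and 5.07, against 5.07 (limma adjusted p = 1). Nrp2, a co-receptor of Flt4, had 6.96 and 6.68, against 6.26 (limma adjusted p = 0.026), and its 3 tested probe sets were higher in both mice. The blood vessel receptors stayed close to the control: Kdr had 8.63 and 8.64, against 8.61, and Flt1 had 7.78 and 7.83, against 7.77. Nrp1 had 9.41 and 9.16, against 9.24 in the control mouse. The same list held 6 other vascular genes, the angiopoietins, their receptor Tek and hypoxia regulators, of which 4 were higher in both mice and 0 passed the test.

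The EGF family had its 1 call among the receptors. Erbb3, a receptor with little kinase activity of its own that binds neuregulins and pairs with Erbb2, had 8.64 and 8.42 in the acetate-fed mice, against 8.97 in the control mouse. The mean difference was -0.44 ± 0.14 (SE; limma adjusted p = 0.048). Its second probe set was 4.44 on each array. Erbb2 had 7.90 and 7.70, against 8.09 in the control mouse (limma adjusted p = 0.33). Egfr was read by 6 tested probe sets: the main one was 7.63 on all 3 arrays, and the mean differences of the 6 lay between -0.20 and 0.00. Erbb4 had no tested probe set.

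No EGF family ligand passed. Egf, made in the distal nephron, had 12.39 and 12.36 in the acetate-fed mice, against 12.44 in the control mouse. Both acetate-fed values were lower, 1.04-fold and 1.06-fold. Hbegf, a ligand shed from the cell surface, had 8.39 and 8.31, against 8.37 in the control mouse. Btc had 6.69 and 7.13, against 6.69, Tgfa was 5.42 on all 3 arrays, and Nrg2 was 5.10 on all 3 at its main probe set. Nrg4 had 4.26 and 4.07, against 4.45 in the control mouse (limma adjusted p = 0.54). A dimmer Nrg4 probe set below the tested range had 3.49 and 3.61, against 4.54, the largest difference among the 43 untested member probe sets, of which 21 were identical on the 3 arrays. Ereg, Nrg1 and Nrg3 had no tested probe set.

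Regulators of the EGF receptor and sheddases of its ligands gave 0 calls by limma among 12 tested genes. Over all genes, 4.13% were called higher and 3.98% lower, so so short a list could well hold none. At any size 4 were higher in both mice and 1 lower, against 26.0% and 30.9% of all genes. The feedback inhibitor Errfi1 had 12.22 and 12.15 in the acetate-fed mice, against 12.22 in the control mouse. The sheddase Adam17 had 7.84 and 7.71, against 7.41 (limma adjusted p = 0.15).

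Hgf, the ligand of Met, lay below the tested range, and its 3 probe sets each had 1 value on all 3 arrays, between 3.38 and 3.72. Met had 9.49 and 9.38 in the acetate-fed mice, against 9.37 in the control mouse, and its second probe set had 7.10 and 6.70, against 6.75, with no call. Of 8 tested genes listed under HGF activation, 2 passed as higher and 0 as lower, against 4.13% and 3.98% of all genes. At any size 3 were higher in both mice and 3 lower, against 26.0% and 30.9%. The tissue plasminogen activator gene Plat had 9.81 and 9.67, against 9.29 in the control mouse (limma adjusted p = 0.025). The membrane protease gene St14 had 8.97 and 9.21, against 8.62 (limma adjusted p = 0.029).

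Of 16 tested adaptors and immediate early genes shared by these receptors, 2 passed as higher and 0 as lower, against 4.13% and 3.98% of all genes. Junb had 8.46 and 8.47 in the acetate-fed mice, against 7.70 in the control mouse (limma adjusted p = 0.00033). Fos had 8.67 and 8.91, against 8.31 (limma adjusted p = 0.03). Egr1, another immediate early gene, had 10.04 and 10.14, against 10.38 in the control mouse (limma adjusted p = 0.21), and Myc had 6.93 and 6.46, against 6.68.

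**Figure D3:**
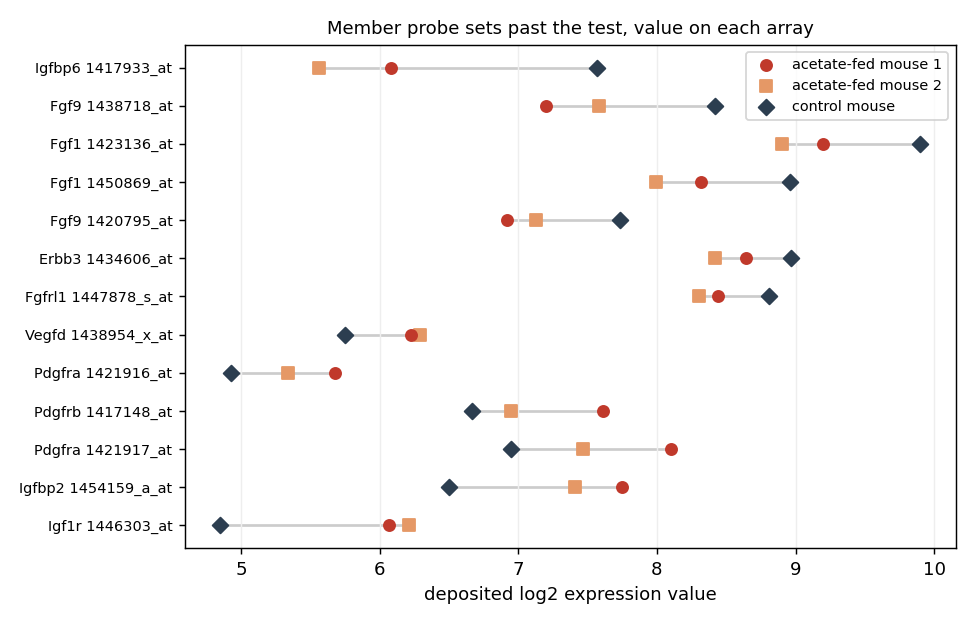
Deposited log2 value on each array for the 13 member probe sets past the test, ordered by mean difference from the largest decrease at the top to the largest increase at the bottom; red circles and orange squares are the acetate-fed mice and dark diamonds the control mouse. The control lies outside the range of the acetate-fed pair in every row, and the pair lies farthest apart at Pdgfrb 1417148_at, Pdgfra 1421917_at and Igfbp6.

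Kidney markers were present on all 3 arrays, with Umod between 13.53 and 13.67 and Slc34a1 between 13.17 and 13.41. Several cell type lists also differed from the control in both acetate-fed mice. In whole tissue, fewer cells of a type and less RNA per cell cannot be told apart. Of 10 listed adipocyte markers, 7 were tested, and all 7 were lower in both acetate-fed kidneys, against 30.9% of all genes. Their summed linear level was 1198 and 1275 in the acetate-fed mice, against 6948 in the control mouse, and Adipoq had 4.38 and 3.87, against 9.98. The filter took the mean over all 3 arrays, so markers such as Adipoq may have been tested only because the control array was high. The count is a description only. The part of adipocyte RNA in the lower Igfbp6, Igfals, Socs2, Irs2, Fgf1 and Fgf9 was not tested. Of the 10 proximal tubule markers, 9 were lower in both mice, against 30.9% of all genes, with a summed level of 66674 and 59080, against 75749 in the control mouse. The median difference of the list was -0.15 in acetate-fed mouse 1 and -0.26 in acetate-fed mouse 2. Gatm, counted as lower, had 12.36 in each acetate-fed mouse, against 12.37 in the control mouse. Of 6 tested liver markers, 3 were lower in both mice and 1 higher, against 30.9% and 26.0% of all genes. The summed level of the liver markers was 1537 and 2502, against 2260 in the control mouse, and Alb had 6.20 and 6.56, against 7.85. The part of proximal tubule or liver RNA in the lower members and in Igfals was not tested either.

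The 10 fibroblast and pericyte markers, which include Pdgfra and Pdgfrb themselves, were all higher in both mice, against 26.0% of all genes. That share stands beside each count of higher markers below, and 30.9% of all genes were lower in both mice. The summed level of the fibroblast and pericyte markers was 11922 in acetate-fed mouse 1 and 5558 in acetate-fed mouse 2, against 3973 in the control mouse. Macrophage markers were higher in both mice at 10 of 10, with a summed level of 13342 and 7984, against 3679 in the control mouse. Injured tubule markers were higher in both mice at 7 of 9, with 12476 and 8467, against 5674. Endothelial markers, which include Kdr and Flt1, were higher in both mice at 9 of 10, with 5332 and 5314, against 4388. Smooth muscle markers were higher in both mice at 4 of 6, with 4784 and 2686, against 2461. The part of these cells in the higher PDGF receptors, Igfbp2, Stc1, Flt4 and Nrp2 was not tested. Markers of the thick ascending limb, which makes Egf, were higher in both mice at 6 of 7. Their summed level was 23044 and 24133, against 20225 in the control mouse. Markers of the distal convoluted tubule, which also makes Egf, were higher in both mice at 7 of 9 and lower at 1. Their summed level was 18210 and 24232, against 17661 in the control mouse.

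**Figure D4:**
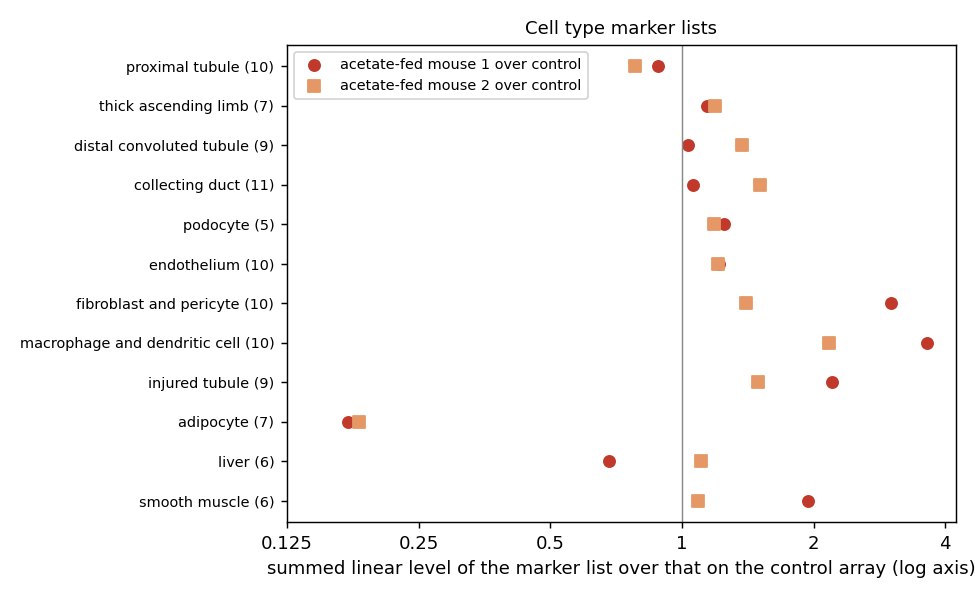
Summed linear level of each cell type marker list on an acetate-fed array divided by that on the control array, on a log axis, for lists with at least 5 tested genes; the number of genes is in brackets, red circles are acetate-fed mouse 1 and orange squares acetate-fed mouse 2. The adipocyte list lies at 0.172 and 0.183, the macrophage list at 3.63 and 2.17, and the fibroblast list at 3.00 and 1.40.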

How the data were processed

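The authors deposited log2 expression values for 45101 probe sets on 3 arrays, with medians of 4.94 and 4.93 on the acetate-fed arrays and 4.91 on the control array. The submitters' processing notes name MAS5 without a role or version. Exact ties are frequent: 44.9% of probe sets have equal values on both acetate-fed arrays and 30.0% on all 3, for a reason the sources used here leave unstated. Scanner files were not used, which leaves detection and saturation unknown, and precision is limited by having 3 arrays. Names came from the platform annotation: 34945 had 1 symbol, 932 several and 9160 none. Of those with 1 symbol, 34741 matched RefSeq by Entrez identifier and 0 symbols changed. The 64 array controls were left out.

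The fit used limma 3.58.1 in R 4.3.3 with an intensity trend. Prior variance and prior degrees of freedom came from probe sets without an acetate tie and were applied to all, because an ordinary fit calls mostly tied pairs. On simulated data with the observed share of ties, the share of false calls exceeded the nominal one, so a pass may be weaker than its adjusted p states. The simulation drew the control value of a tied pair independently. In the data 33.7% of tested probe sets had an acetate tie, and 20.5% of tested probe sets were identical on all 3 arrays. How far the simulated excess carries over is therefore not known. None of the 13 member calls is a tied pair. Tables and plots used Python 3.11.15, pandas 2.3.3 and matplotlib 3.10.9. Each gene's main probe set is the tested one of highest mean. Genes named are the members, plus listed pathway genes that passed the test, were at least 2-fold different in both mice or were preset; Spry2, Adam17, Egr1, Myc, Ghr and the cell type markers printed were picked after their values were seen. The members and lists were chosen with earlier results of these data known. Nothing in the labels says more of the mice than 1 kidney each. The residual spread is that of 1 pair of arrays from 2 mice, where animal and array differences cannot be told apart. The p-values rest mostly on the spread pooled over probe sets. Alternatives were another scaling, filter, tie treatment, pseudocount, fold and leaving out each acetate-fed mouse. Promoter windows are from RefSeq, GRCm38.p6.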

Additional observations from a re-analysis of the deposited data

How the results depend on the processing

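Calls depended on the fit. Quantile normalization gave 0 calls over all probe sets (2835 at an unadjusted p under 0.05) and 0 among the members. Median centring gave 5 higher and 20 lower, with 0 among the members, and the upper 40% of probe sets gave 108 higher and 161 lower, with 1 member higher (Igfbp2) and 2 lower (Igfbp6 and Fgf9). Prior degrees of freedom were 2.45, 3.53 and 5.69 in these fits, against 26.5 in the fit reported. The ordinary fit with ties gave 1446 lower calls over all probe sets, and 1 higher and 5 lower calls among the members, none of them among the 13 reported. Without an intensity trend, without a filter and without tied pairs, all counts of calls stayed within 1.5 times those reported. Single calls changed: without the trend Erbb3 (limma adjusted p = 0.1), Fgfrl1 (0.09) and Pdgfrb 1417148_at (0.082) lost theirs. Without the filter the dim Nrg4 probe set was called lower (3.5e-08), Pdgfrl and Pdgfrb 1436970_a_at higher. Without tied pairs, Pdgfrl and Pdgfrb 1436970_a_at were called higher and Fgfrl1 1451912_a_at lower. At 1.5-fold in both mice, 450 probe sets were higher and 333 lower, with 2 members higher and 5 lower. A pseudocount of 32 left 38 probe sets at least 2-fold higher, with 0 members, and the upper 40% also left 0 members higher. Leaving out 1 acetate-fed mouse, which leaves no test, gave 149 to 384 probe sets at least 2-fold higher and 124 to 157 lower, with 1 to 4 members higher and 2 lower whichever mouse was left out. Of the 48 tested member genes, no called difference changed sign under any alternative. After quantile normalization or median centring, the 7 called genes lost their call and the other 41 were unchanged in call. The differences themselves moved little: Igfbp6 was -1.76 and -1.77, against -1.75 as reported, Igfbp2 1.07 and 1.06, against 1.08, and Fgf9 -1 and -1.05, against -1.03. No paired analysis was possible because there is 1 control array.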
